A study of Mus musculus with 2 samples.

Results

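The cytosolic ribosomal protein genes were followed in single-cell RNA sequencing of bone marrow derived macrophage cultures from wild-type 129Sv mice. Genes were taken by symbol: Rpl or Rps and a digit, or Rpsa, Rplp0, Rplp1 and Rplp2, leaving out pseudogenes marked as such and the S6 kinases, with at least 100 unique molecular identifiers (UMIs, the tags that count single RNA molecules) in each library. Of 31053 listed genes, 86 matched by name and 85 met the minimum; Rpl10l, with 2 UMIs in each library, did not. The rule uses names and total counts, not the difference between the libraries. It also took Rps19bp1, which encodes a protein that binds Rps19 and is no ribosomal protein, and it missed ribosomal proteins under other names, such as Fau and Rack1, which are given separately.

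All cells were grown with 10% fetal bovine serum and 50 ng/ml M-CSF, the cytokine under which marrow cells become macrophages. On day 7 the THP group received 1 µg/ml of a truncated Tamm-Horsfall protein that does not polymerize, a form of a protein secreted by the kidney, and the vehicle group received 5% dextrose, each for 18 h. Dead cells were removed before the libraries were made. There was 1 library per group, so no difference has a replicate check and the treatment cannot be told apart from the dish, the animal or the library preparation. No test was run, and every interval below is a 95% interval of counting error alone.

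After the cell filter the THP library held 12123 cells with 224825484 UMIs and the vehicle library 10978 cells with 207662132 UMIs. A median THP cell had 16113 UMIs and 2.92% mitochondrial UMIs, and a median vehicle cell 17223 UMIs and 3.22%. Both libraries hold the same 38 kept barcodes, which were left in; leaving them out gave the same ribosomal share ratio to 2 decimals (0.14). Cells were sorted into types by marker genes, with minimum shares set after seeing the data, and not all were macrophages: 36.9% of THP cells and 24.4% of vehicle cells met the macrophage gate. The mature neutrophil gate took 13.9% and 17.0%, and the immature neutrophil gate 6.47% and 10.1%. The markers chose these cells, so their presence in a gate is no check of it. Of the 10 leading genes of the macrophage gate by fold, 5 were its listed markers (C1qa, C1qb and C1qc among them) and the others were not. Levels are given as CPM, a gene's UMIs per 1000000 UMIs.

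Ribosomes are built from a small subunit that reads the mRNA and a large subunit that joins amino acids, with a stalk of acidic proteins that recruits the elongation factors. Most mammalian ribosomal proteins come from 1 expressed gene each, with many processed pseudogenes, and a few have a paralog with a restricted tissue pattern. Their mRNAs commonly begin with a C followed by a tract of pyrimidines, the terminal oligopyrimidine tract, through which mTOR signalling controls their translation.

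Pyrimidine tracts at or near the annotated start were more frequent in these genes than in all genes. Most members with a window had none exactly at the annotated base. The starts used in these cells were not measured, so a tract away from that base can still begin the mRNA. A RefSeq promoter window (GRCm38.p6) was found for 65 of the 85 genes. A C followed by at least 4 C or T lay exactly at an annotated start of 14 of the 65 (21.5%), against 3.01% of 27025 genes. A run of at least 8 such bases beginning with C within 20 bases of the start was present in 46.2% against 14.5%, and CTTTCC on the sense strand there in 18.5% against 2.30%. Over the 300-base windows and both strands, CCGGAAG was present in 40% against 9.93% of genes, GGGCGG in 61.5% against 38.2%, AAGATGG in 15.4% against 7.28% and TATAAA in 10.8% against 15.7%. The 40 bases around the start are printed for genes that the results below turn on, from the lowest and highest ratios and the stalk, to set starts with and without a tract side by side. Capitals mark the longest run of at least 5 C or T that begins with C.
Rpl35, chr2:39005112-39005151, minus strand: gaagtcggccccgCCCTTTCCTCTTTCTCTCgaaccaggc
Rpl4, chr9:64173367-64173406, plus strand: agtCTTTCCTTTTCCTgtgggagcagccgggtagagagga
Rplp0, chr5:115559447-115559486, plus strand: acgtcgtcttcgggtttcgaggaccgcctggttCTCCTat
Rplp2, chr7:141447631-141447670, plus strand: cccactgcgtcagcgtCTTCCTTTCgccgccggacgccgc
Rps27, chr3:90213629-90213668, minus strand: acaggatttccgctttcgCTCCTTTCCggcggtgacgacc
Rps27rt, chr9:114982720-114982759, minus strand: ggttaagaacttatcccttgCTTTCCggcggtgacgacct
Rpl22l1, chr3:28805488-28805527, plus strand: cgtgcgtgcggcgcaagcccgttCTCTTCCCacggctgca
Rpl27, chr11:101442225-101442264, plus strand: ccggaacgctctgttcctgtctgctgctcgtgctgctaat
Rps28, chr17:33824543-33824582, minus strand: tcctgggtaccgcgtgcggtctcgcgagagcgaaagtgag

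Of the genes printed, Rpl35 and Rpl4 had ratios below 0 and have the longest runs, of 18 and 13 bases. Rps27 and Rps27rt share the letters CTTTCC at the start. Rpl27 and Rps28 have no run of at least 5 C or T beginning with C in this window, which is placed by the annotation. Across the members with a window and a ratio, the median log2 ratio of THP over vehicle (of CPM + 1) was 0.18 for the 30 with a run of at least 8 and 0.12 for the 33 without.

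Ribosomal protein genes took a larger share of the RNA in the THP library. They held 42898796 UMIs there, 19.1% of the total (19.08 to 19.09), and 35869809 UMIs in the vehicle library, 17.3% (17.27 to 17.28), a difference of 1.81 percentage points and a log2 ratio of 0.14. The median cell had 18.8% with THP and 16.7% with vehicle. The cells formed a low and a high group: 17.1% of THP cells and 24.1% of vehicle cells had a ribosomal share under 10%. The third quartile of cells in the mature neutrophil gate, at 9.76% and 8.98%, lay under that level. With each gated type given the same weight in both libraries the log2 ratio was again 0.14, and with equal weight per cell it was 0.21.

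Most members were a little higher in the THP library by library totals, with quartiles of the log2 ratio at 0.08 and 0.22. Of 83 members with at least 10 CPM in a library, 76 were higher in the THP library and 7 lower, against 32.4% of the 8012 genes tested that were higher. Their median log2 ratio of CPM + 1 was 0.15, where that of all genes was -0.18, and the SD over members was 0.14 against 0.43 over all genes. Past a log2 ratio of 0.32 lay 5 members, a share near the 6.35% of all genes; none of the 83 lay past -0.32, where 36.8% of all genes did. The direction of the lower members depended on the scaling. TMM factors, which scale the libraries so that most genes lie near level, raised every ratio by 0.29, and then 83 of 83 members were above 0 and 68 past 0.32, beside 59.8% and 28.6% of all genes. RLE factors raised them by 0.28 and gave 83 and 68 as well.

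**Figure D1:**
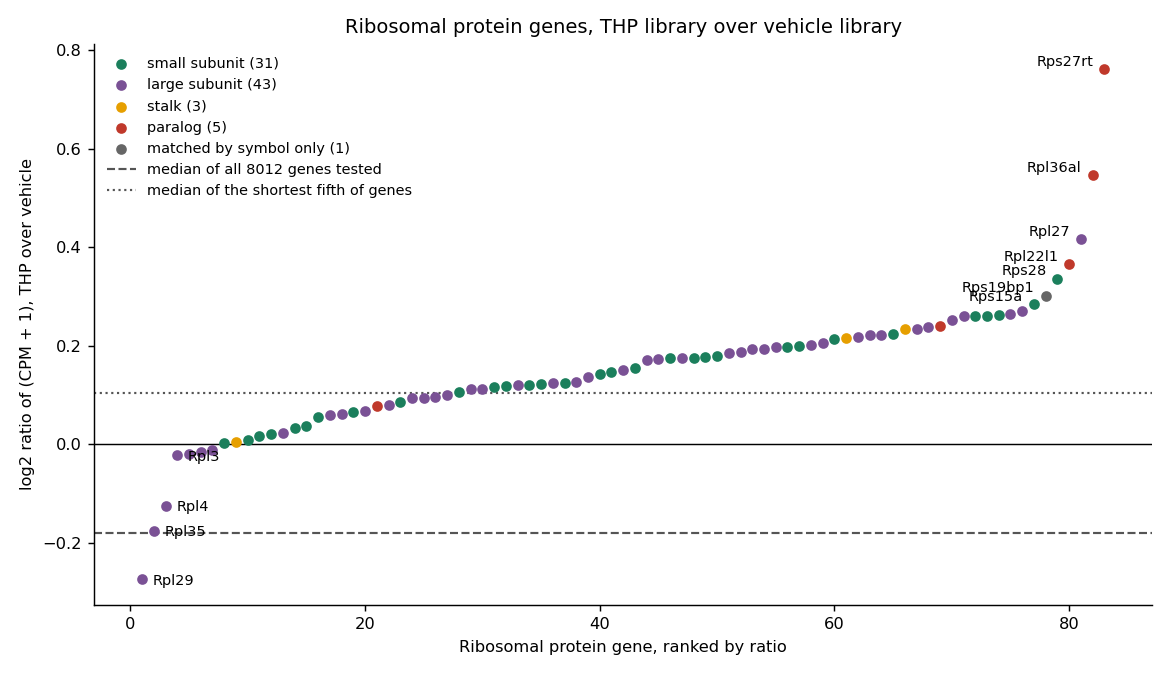
Each point is 1 of the 83 ribosomal protein genes tested, ranked by its log2 ratio of (CPM + 1) between the THP and the vehicle library (y axis) and coloured by class. Most points lie between 0 and 0.3, near the dotted median of the 1606 shortest genes (0.10) and above the dashed median of all genes (-0.18); Rps27rt at 0.76 and Rpl29 at -0.27 are the ends.

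Short genes in general were higher in the THP library. Split by the longest annotated transcript into 5 groups of about equal size, the 1606 shortest genes (204 to 1905 bases) had a median log2 ratio of 0.10 and the 1602 longest one of -0.51. Of the members, 65 were among the shortest, with a median of 0.15. Among those short genes with a mean of at least 200 CPM that are no ribosomal protein genes, 294 in number, the median was 0.20 and 231 were higher. After the trend of the ratio with transcript length was subtracted, the median of the members was 0.05 and that of all genes 0.01. Above 0 were then 49 of 83 members, beside 4121 of the 8011 genes tested that have a length. The part of transcript length in the ribosomal difference was not tested further.

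Within the members the ratio also went with the length of the coding sequence. The 28 members of 75 to 396 coding bases had a median log2 ratio of 0.20, the 28 of 399 to 564 bases one of 0.19, and the 27 of 576 to 1257 bases one of 0.07. Over the 83 members Pearson's r between the ratio and the log10 coding length was -0.45 and Spearman's rho -0.56, across genes that share both libraries and are no independent replicates. With the longest annotated transcript in place of the coding length, r was -0.13.

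**Figure D2:**
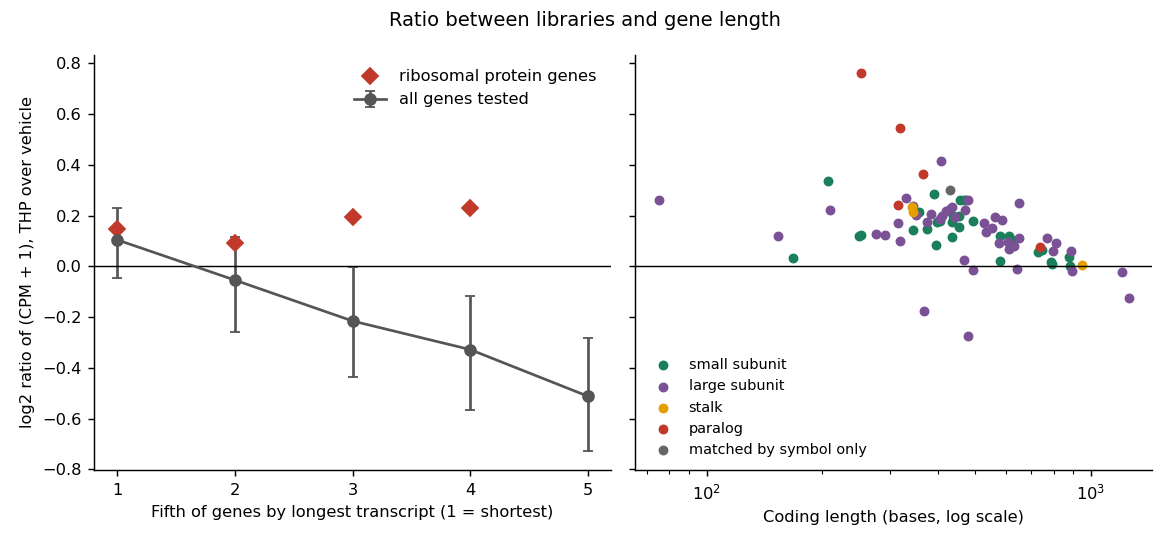
Left, median log2 ratio of all genes tested in 5 groups by longest transcript (grey, bars from the first to the third quartile) with the median of the ribosomal protein genes in each group that holds any (red diamonds). Right, each ribosomal protein gene's ratio against its coding length; the all-gene medians run from 0.10 to -0.51, and members of 576 coding bases or more run from -0.12 to 0.25 with a median of 0.07.

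In the small subunit 31 of 31 genes were higher in the THP library with each scaling. Of all genes tested, 32.4% were higher by library totals, 59.8% with TMM and 59.2% with RLE factors. Among the 1606 shortest genes 1105 were higher by library totals. The small subunit had a median log2 ratio of 0.14 by library totals, with a range of 0.0024 to 0.34. Rps28, a small protein near the mRNA exit, had the highest ratio, at 1133 CPM (1128 to 1137) with THP and 898 CPM (893 to 902) with vehicle. Rps27a, which is made as a fusion with ubiquitin, had 5487 and 4572 CPM, a log2 ratio of 0.26. Rps24, mutated in Diamond-Blackfan anaemia, had 4783 against 4235 CPM. Rpsa, also known as the laminin receptor, was nearly the same in both libraries, at 4274 CPM (4265 to 4282) and 4266 CPM (4258 to 4275). Rpl13, of the large subunit, had 5388 against 5099 CPM. Rps27a, Rps24, Rpsa and Rpl13 are among the 5 members with the most UMIs; the values are not per length and set no order between genes. Rps6, the target of the S6 kinases, had a log2 ratio of 0.07.

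In the large subunit 36 of 43 genes were higher by library totals, beside 32.4% of all genes. The median of the subunit was 0.14. Rpl27 (ENSMUSG00000063316, chromosome 11, 101442298 to 101445529, plus strand) led with 405 CPM (403 to 408) under THP and 304 CPM (301 to 306) under vehicle, that is 0.42 on the log2 scale. All 7 members that were lower by library totals, and higher by TMM or RLE, belong to this subunit: Rpl29, Rpl35, Rpl4, Rpl3, Rpl5, Rpl12 and Rpl10. Rpl29 (ENSMUSG00000048758, chromosome 9, 106429454 to 106431568, plus strand) is also known as a heparin-binding protein. It was at 86.3 CPM (85.1 to 87.5) with THP and 105 CPM (103 to 106) with vehicle, with a ratio of -0.27. Rpl35 (ENSMUSG00000062997, chromosome 2, 39001580 to 39005624, minus strand), which lies beside the exit of the peptide tunnel, was at 823 CPM (820 to 827) with THP and 930 CPM (926 to 934) with vehicle, with a ratio of -0.18. Rpl4, which reaches into that tunnel with a long loop, had 958 against 1044 CPM, a ratio of -0.12. The other 4 lay between -0.02 and -0.01, and Rpl3, which lies near the peptidyl transferase centre, turned to 0.07 with equal weight per cell. Rpl5 and Rpl11, which bind the 5S rRNA and can hold Mdm2, had log2 ratios of -0.02 and 0.14. Rpl13a, known from inflammatory monocytes for silencing bound mRNAs once released from the ribosome, had 168 and 157 CPM.

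Over all cells the stalk genes differed in their ratios, and within 6 of the 7 gated types compared below by less, osteoclast-like cells being the exception. Rplp1 was at 3969 CPM (3961 to 3978) with THP and 3375 CPM (3368 to 3383) with vehicle, a ratio of 0.23, and Rplp2 at 2168 and 1868 CPM, a ratio of 0.21. Rplp0, the large base of the stalk that holds the P1 and P2 dimers, was at 3074 CPM (3067 to 3081) and 3063 CPM (3055 to 3071), a ratio of 0.0053. Within the 7 types it was higher, from 0.08 in progenitors and monocytes to 0.19 in immature neutrophils, except in osteoclast-like cells at -0.0025. In macrophages Rplp0, Rplp1 and Rplp2 were at 0.13, 0.20 and 0.15. The coding sequence of Rplp0 is 951 bases against 342 and 345 for Rplp1 and Rplp2. The length trend uses the longest transcript, a different measure. After it was subtracted the ratios of Rplp0, Rplp1 and Rplp2 were -0.07, -0.02 and 0.07. The part of length in the stalk ratios was not tested.

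Fau and Rack1, which the symbol rule leaves out, were also higher with THP. Fau, a fusion of a ubiquitin-like protein with a small subunit protein, was at 4036 CPM with THP and 3316 CPM with vehicle, a ratio of 0.28. Rack1, a scaffold protein on the small subunit, had 1927 and 1852 CPM, a ratio of 0.06.

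Reads from near-identical genes could have been shared out or dropped in counting, which makes the members at both ends of the range uncertain. At least 50% of the 50-base windows in the last 300 bases of the transcript were shared with another listed gene in 16 of the 83 members, and those had log2 ratios from -0.27 to 0.76 with an SD of 0.25. The other 67 members ran from -0.12 to 0.37 with an SD of 0.10. Rps27rt, Rpl36al, Rpl27, Rpl35 and Rpl29 belong to the first set, and Rpl22l1, Rps28 and Rpl4 to the second. The second set is not free of shared sequence. With annotated genes outside the list counted too, 52 of the 83 members shared at least 50% of their windows, with an SD of 0.16. Rps28 then shared 75.7% and Rpl22l1 63.3%, while Rpl4 shared 0%. Rpl29 shared 61.0% of its windows with Gm17669 and Gm3550, and summed with them it still had a log2 ratio of -0.28. Rpl35 summed with its partners had -0.17, and Rpl27 with Rpl27-ps3 had 0.40. Rpl41 went from 0.26 alone to 0.18 together with Gm10076, which was itself at 177 CPM with THP and 314 CPM with vehicle.

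The highest ratios were those of paralogs, Rps27rt and then Rpl36al. Of the other paralogs tested, Rpl22l1, Rps27l and Rpl7l1 were at 0.37, 0.24 and 0.08. Rps27rt (ENSMUSG00000050621, chromosome 9, 114982366 to 114982739, minus strand) is a copy of Rps27 whose single annotated transcript of 374 bases spans the gene without an intron. It was at 66.7 CPM (65.6 to 67.8) with THP and 39.0 CPM (38.1 to 39.8) with vehicle, a ratio of 0.76, while Rps27 had 1039 and 953 CPM, a ratio of 0.12. Summed, Rps27rt and Rps27 had 1106 and 992 CPM, a ratio of 0.16. Its 252 coding bases, stop codon left out, are identical to those of Rps27, whereas those of the other paralog, Rps27l, a known p53 target, are identical at 192 of 252 positions. The coding sequences are printed to show how far reads of each can be told apart, with the positions that differ in capitals.
Rps27, and unchanged in Rps27rt: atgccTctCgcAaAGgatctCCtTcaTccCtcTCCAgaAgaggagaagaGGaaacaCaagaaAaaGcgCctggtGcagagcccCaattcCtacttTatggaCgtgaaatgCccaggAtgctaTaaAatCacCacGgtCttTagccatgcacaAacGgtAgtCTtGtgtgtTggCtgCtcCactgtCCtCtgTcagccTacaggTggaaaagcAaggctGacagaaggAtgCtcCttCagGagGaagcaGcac
Rps27l: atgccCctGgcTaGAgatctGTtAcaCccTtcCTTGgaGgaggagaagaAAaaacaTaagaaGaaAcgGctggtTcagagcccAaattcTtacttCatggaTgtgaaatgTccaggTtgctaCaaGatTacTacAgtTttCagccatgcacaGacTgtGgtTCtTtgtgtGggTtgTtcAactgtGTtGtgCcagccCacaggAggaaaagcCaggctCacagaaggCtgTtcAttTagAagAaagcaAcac

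Taken as a share of the pair's UMIs, Rps27rt made up 6.03% (5.94 to 6.13) of Rps27rt and Rps27 with THP and 3.93% (3.84 to 4.01) with vehicle. In the 10 gated types plotted it ran from 5.86% to 6.16% with THP and from 3.41% to 4.31% with vehicle, so the values did not overlap, though the intervals did in both lymphoid types. Mast cells or basophils, not plotted, went the other way at 3.82% and 4.18%, from 27 and 18 UMIs. For 2 genes with the same coding sequence this is a share of the reads as counted, and its relation to transcription was not tested.

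Rps27l did differ between cell types. It made up 54.7% of Rps27l and Rps27 in THP progenitors and 51.7% in vehicle progenitors, and 47.4% and 45.6% in macrophages. In T, NK and innate lymphoid cells it made up 22.1% (19.5 to 24.8) and 14.7% (12.1 to 17.5), and in B-lineage cells 16.2% (14.5 to 18.1) and 12.0% (10.2 to 14.0). The lymphoid types lay below every myeloid type in both libraries, and the THP value was the higher in all 10 types plotted.

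Rpl22l1 (ENSMUSG00000039221, chromosome 3, 28805436 to 28807424, plus strand) encodes a paralog of Rpl22 known from blood cell development. It was at 496 CPM (493 to 499) with THP and 385 CPM (382 to 388) with vehicle, a ratio of 0.37. Among the 10 types its share of Rpl22l1 and Rpl22 was highest in stromal cells, at 39.5% with THP and 43.9% with vehicle, followed by macrophages at 29.5% and 29.9%, and lowest in progenitors, at 14.4% and 12.6%. Within macrophages its log2 ratio was 0.20, and with the same mix of types in both libraries it was 0.23, both under the limit of 0.32. Rps28 was at 0.31 with the same mix, also under it.

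Rpl36al (ENSMUSG00000049751, chromosome 12, 69182731 to 69184083, minus strand) is a copy of Rpl36a with 279 of 318 coding bases identical. It was at 347 CPM (344 to 349) with THP and 237 CPM (235 to 239) with vehicle, a ratio of 0.55, where Rpl36a had 876 and 817 CPM. Its share of the pair was 28.4% (28.2 to 28.5) against 22.5% (22.3 to 22.7), and it was higher with THP in all 10 types, from 19.2% against 14.8% in T, NK and innate lymphoid cells to 35.7% against 27.4% in immature neutrophils. In T, NK and innate lymphoid cells the intervals overlapped (16.2 to 22.5 and 11.4 to 18.8), and so they did in B-lineage cells, at 27.8% (24.7 to 31.1) and 26.4% (22.7 to 30.3). Rpl7l1, a paralog of Rpl7 tied to ribosome assembly, had 120 and 114 CPM, and 6.53% and 6.60% of the UMIs of the pair.

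**Figure D3:**
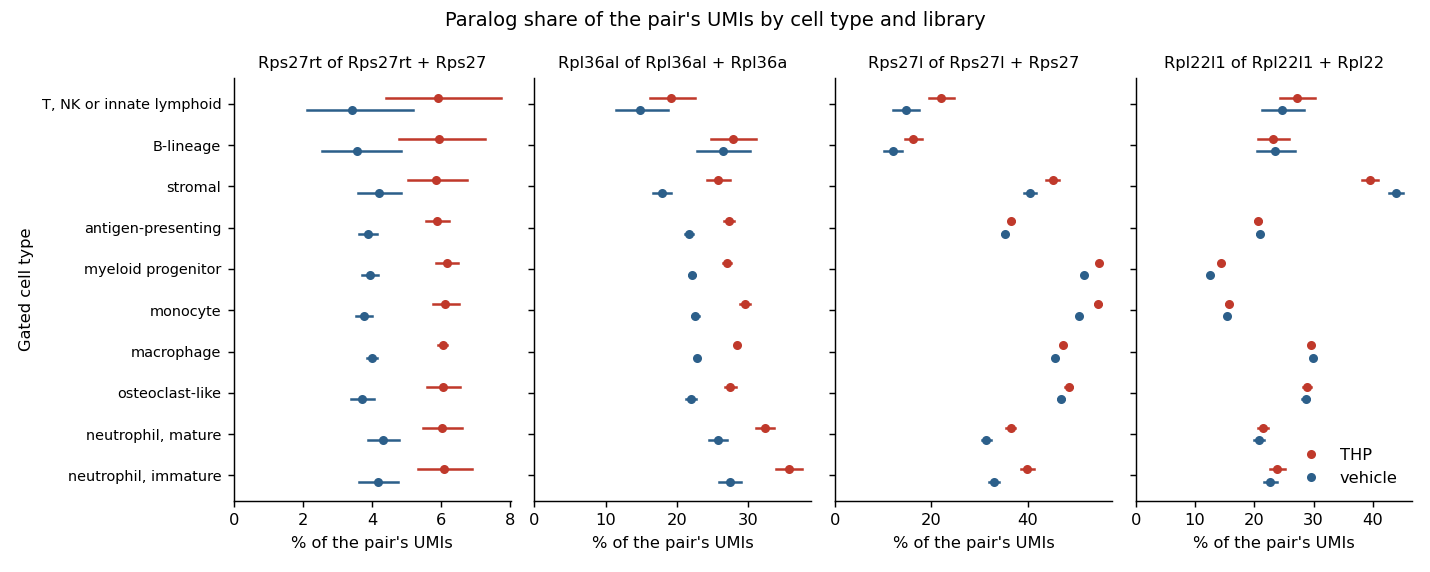
Share of the UMIs of a gene pair that came from the paralog (x axis, %) in 10 gated cell types (y axis) of the THP (red) and vehicle (blue) library; lines are exact binomial 95% intervals. Rps27rt stays near 6.03% and 3.93% in every type, whereas Rps27l runs from 12.0% in vehicle B-lineage cells to 54.7% in THP progenitors.

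A pair of paralogs known from other tissues were near the floor. Rpl39l, best known from testis, had 665 UMIs with THP and 747 with vehicle, at 2.96 and 3.60 CPM. The 76 stromal cells of the THP library held 330 of them and the 70 of the vehicle library 593. There Rpl39l made up 5.95% (5.35 to 6.61) and 7.32% (6.76 to 7.91) of the UMIs of Rpl39l and Rpl39, against 0.06% and 0.08% in macrophages. Osteoclast-like THP cells held 138 UMIs against 6 in vehicle cells, but the former lay in 6 cells, 1 of which had 64. The coding sequences of the pair differ at 23 of 153 positions, shown in capitals, so that the stromal UMIs can be set apart from those of the abundant parent.
Rpl39l: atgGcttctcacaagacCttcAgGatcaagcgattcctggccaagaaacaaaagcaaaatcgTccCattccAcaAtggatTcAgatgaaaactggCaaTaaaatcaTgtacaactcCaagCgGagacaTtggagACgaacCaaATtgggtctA
Rpl39: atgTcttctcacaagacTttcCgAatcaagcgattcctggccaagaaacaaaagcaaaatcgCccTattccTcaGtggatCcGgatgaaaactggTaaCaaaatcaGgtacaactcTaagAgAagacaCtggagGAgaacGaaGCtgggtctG

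Rpl3l, best known from heart and skeletal muscle, had 209 and 194 UMIs (0.930 and 0.934 CPM). Mature and immature neutrophils held 57 and 36 of them in the THP library and 63 and 34 in the vehicle library. Against Rpl3 it made up 0.70% (0.53 to 0.90) and 0.70% (0.54 to 0.89) of the pair in mature neutrophils, and 0.02% in macrophages of both libraries. No cell held more than 3 of its UMIs. Rps19bp1, taken by symbol only, had 69.2 and 55.9 CPM, a log2 ratio of 0.30.

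The ribosomal share was higher in the THP library in each of the 7 gated types with at least 100 cells per library. In macrophages it was 19.0% (18.97 to 18.98) against 17.0% (17.04 to 17.05), in osteoclast-like cells 15.9% against 14.9% and in monocytes 21.5% against 19.5%. Myeloid progenitors had 21.1% against 19.2% and antigen-presenting cells 22.3% against 19.9%. The log2 ratios of these 5 types ran from 0.09 to 0.16. The median UMIs per cell were lower in the THP library in all 5, from 21182 against 23238 in macrophages to 13039 against 17457 in antigen-presenting cells, and so was the median mitochondrial share. In cells of 10000 to 30000 UMIs only, a limit chosen after seeing the data, the 5 ratios were 0.12 to 0.16; the part of RNA quality was not tested.

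**Figure D4:**
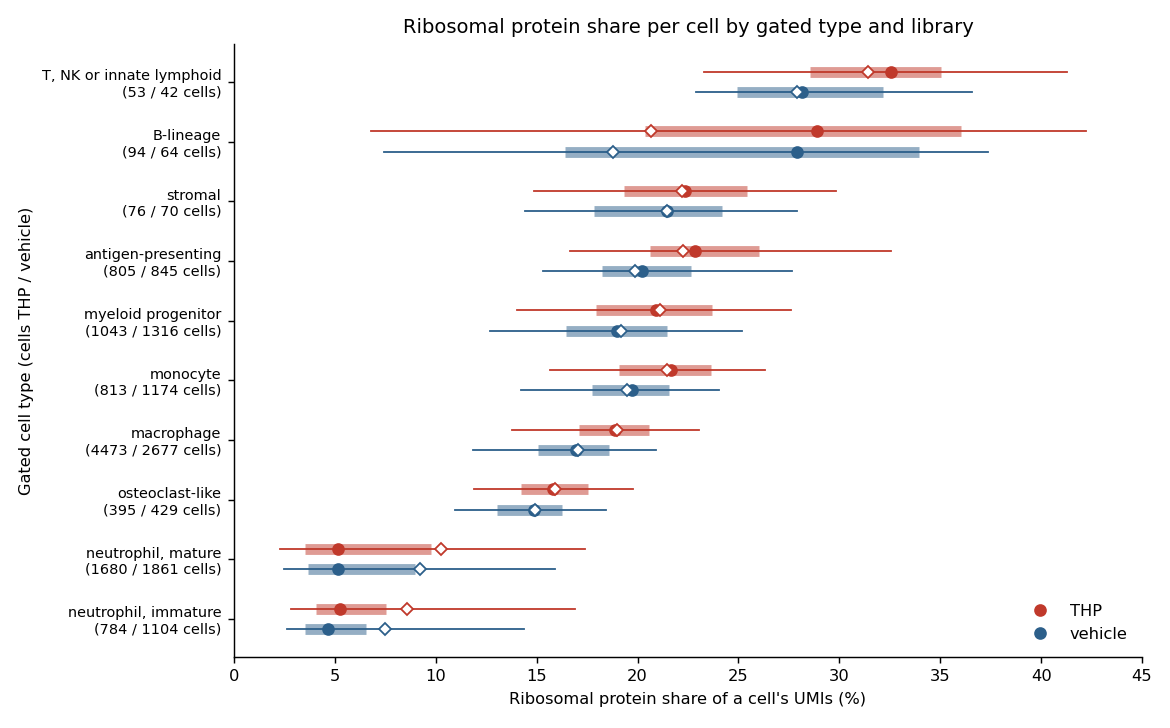
Ribosomal protein share of a cell's UMIs (x axis, %) by gated cell type (y axis) in the THP (red) and vehicle (blue) library. Thin lines run from the 5th to the 95th percentile of cells, bars from the first to the third quartile, circles are the median cell and open diamonds the pooled share; neutrophil medians lie near 5%, those of macrophages at 18.9% and 17.0%, and those of T, NK and innate lymphoid cells at 32.6% and 28.2%.

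Neutrophils had the least ribosomal protein RNA. In the mature gate the pooled share was 10.3% with THP and 9.23% with vehicle, yet the median cell had 5.18% and 5.17%. The log2 ratio of the mature gate's pooled share, 0.15, was 0.33 in cells of 10000 to 30000 UMIs (245 and 401 cells), 0.09 with equal weight per cell and 0.05 with cells thinned to 2000 UMIs. In the immature gate the pooled share was 8.60% against 7.48% and the median cell 5.26% against 4.69%. Its log2 ratio of 0.20 was 0.46 in cells of 10000 to 30000 UMIs (117 and 250 cells). That gate's direction depended on how cells meeting several gates were treated. With such cells left out its log2 ratio was -0.06, over 239 and 194 cells, and with each given to the gate of its largest share it was -0.0060; under both rules the other 6 types stayed higher in the THP library.

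The share was lower in cells with more than 5% of UMIs from mature neutrophil markers. Cells with less than 0.5% of UMIs from the mature markers had a pooled ribosomal share of 19.8% with THP and 18.3% with vehicle. From 0.5% to 1% of such UMIs the values were higher, 20.5% and 18.6%, and from 1% to 5% they were 19.8% and 18.3%. Between 5% and 10% they were 18.0% and 16.7%. Between 10% and 20% they were 15.4% and 12.2%, between 20% and 30% they were 8.36% and 6.30%, and above 30% they were 4.82% and 4.06%. The markers themselves take up part of the total, but with all of them left out of it the last pair was still 8.12% and 6.57%. Counted as molecules, a median cell went from 3864 and 4121 ribosomal UMIs in the first bin to 110 and 83.5 in the last, where median cells had 3236 and 2584 UMIs in all. Macrophage markers, a measure of foreign RNA or joined cells in neutrophils, took 0.25% and 0.22% of UMIs in the first bin and 0.02% and 0.02% in the last; their part in the remaining ribosomal share was not tested.

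**Figure D5:**
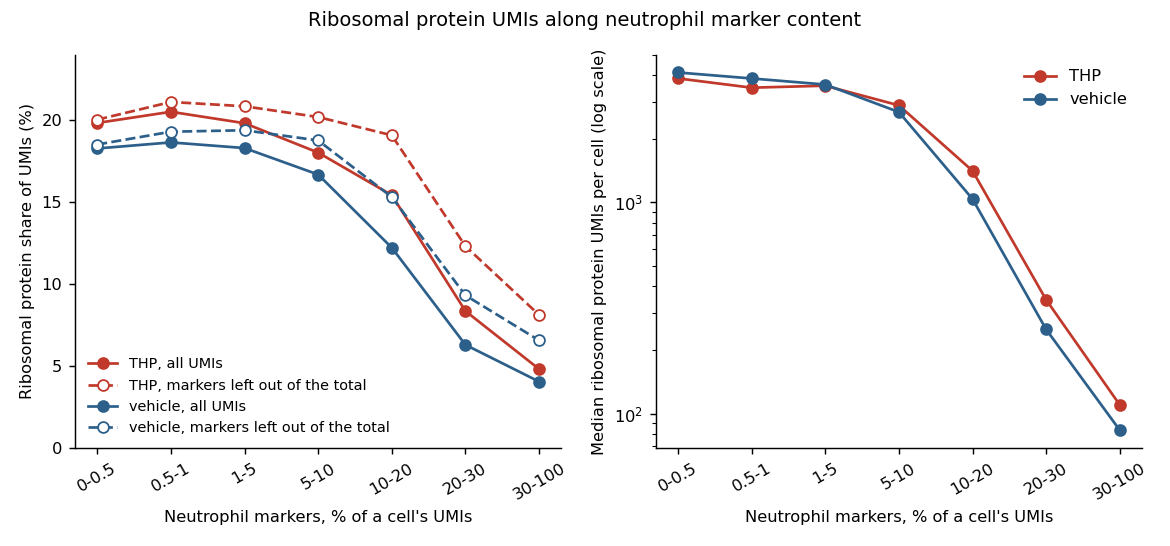
Left, pooled ribosomal protein share of UMIs (%) in 7 bins of the share of a cell's UMIs from mature neutrophil markers, with all UMIs (filled) and with the markers left out of the total (open, dashed). Right, median ribosomal protein UMIs per cell on a log axis; both are lower in the last bins than in the first in both libraries, going from 3864 to 110 UMIs in the THP library (red) and from 4121 to 83.5 in the vehicle library (blue).

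Of the smaller types, under 100 cells in a library, T, NK and innate lymphoid cells, 53 with THP and 42 with vehicle, had the highest shares of all gated types, 31.4% (31.2 to 31.6) and 27.9% (27.7 to 28.1). B-lineage cells had 20.7% and 18.8% pooled but 28.9% and 27.9% in the median cell. Stromal cells had 22.2% (22.1 to 22.3) and 21.5% (21.4 to 21.5). Mast cells or basophils (51 and 30 cells) had 22.9% and 20.5%, and macrophages of the Vsig4 gate (25 and 27 cells) had 16.7% and 14.1%, under those of other macrophages. Each was higher in the THP library, in a few cells of 1 library each.

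Most single members, but not all, had the direction of the whole in each type. Of the 83, 64 were higher in the THP library in every one of the 7 types, and 3 were lower in every one: Rpl29, Rpl35 and Rpl4. The remaining members were higher in some types and not in others. The same counts over all genes were not made. By type, the share of all genes that were higher ran from 28.7% in mature to 34.1% in immature neutrophils. The median log2 ratio of the shortest of 5 length groups of genes ran from 0.08 to 0.14 in the same types. In macrophages 78 of 83 members were higher, where 33.1% of all genes were. There 4 members lay past 0.32, where 6.08% of all genes did. In osteoclast-like cells, where 84 members reached 10 CPM, 4 lay past it (5.2% of all genes); 1 of these was Rpl39l, whose 138 UMIs in that gate lay in 6 cells, and the others were Rps27rt, Rpl36al and Rpl27. Past that limit lay 5 in monocytes (5.94%), 5 in progenitors (5.5%) and 4 in antigen-presenting cells (7.07%). Mature neutrophils had 10 (9.15%) and immature neutrophils 14 (10.6%). None lay past -0.32 in any of the 7 types, where the share of all genes was 35.1% in macrophages, 39% in osteoclast-like cells, 35.5% in monocytes, 45.7% in mature neutrophils, 40.5% in immature neutrophils, 35.6% in progenitors and 41.9% in antigen-presenting cells. The median log2 ratio of the members ran from 0.10 in osteoclast-like cells to 0.21 in immature neutrophils, and the all-gene median from -0.27 in mature neutrophils to -0.16 in monocytes. Rpl27 was between 0.39 and 0.52 in all 7 types and Rps27rt between 0.56 and 0.84. Rpl35 ran from -0.27 in osteoclast-like cells to -0.03 in mature neutrophils.

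The make-up of the ribosomal protein RNA varied little between cell types. The part of a member in all ribosomal UMIs had a median SD of 0.14 (log2) over the 7 types and 2 libraries, and 74 of 83 members were under 0.25. Rpl22l1 varied most, from 0.14% of ribosomal UMIs in THP progenitors and 0.11% in vehicle progenitors to 0.31% and 0.30% in macrophages. Rps2, near the mRNA entry, made up 1.30% and 1.36% in progenitors but 0.82% and 0.76% in immature neutrophils. Rps29, a small zinc-binding protein, went the other way, with 2.59% and 2.93% in immature neutrophils and 1.59% and 1.69% in antigen-presenting cells. Rpl35 was highest in osteoclast-like cells, at 0.49% and 0.63%, and lowest in immature neutrophils, at 0.32% and 0.39%. Rpl7l1 was highest in progenitors, at 0.08% and 0.10%, and lowest in osteoclast-like cells, at 0.05% in both. Rps27rt made up 0.045% with THP and 0.033% with vehicle in mature neutrophils, and 0.031% and 0.019% in progenitors. Rpl7 was the least variable, from 0.88% and 0.91% in macrophages to 0.95% and 1.00% in immature neutrophils.

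Other genes of the translation apparatus were set beside the ribosomal proteins. For the counts that follow, 32.4% of all genes tested and 1105 of the 1606 shortest genes were higher by library totals. Mitochondrial ribosomal proteins, which build the ribosome of that organelle, had a median log2 ratio of 0.16, close to that of the cytosolic ones, with 65 of 77 genes higher; Mrpl52 was highest at 0.81, with 223 against 127 CPM, and Mrps27 lowest at -0.31. Elongation factors and other mRNAs with a terminal oligopyrimidine tract had a median of 0.03, with 11 of 17 higher. Among them Btf3 was at 0.20 and Eef1d at 0.17, and Pabpc1, the poly(A) binding protein, at -0.46 with 741 against 1017 CPM and Eif4b at -0.45. Initiation factors had a median of 0.02, with 13 of 24 higher; Eif6, which keeps the large subunit from joining early, was at 0.44 and Eif4g1, the scaffold of the cap complex, at -0.48. Ribosome assembly genes had 0.04, with 17 of 32 higher; Grwd1 was at 0.41, Mrto4 at 0.35, Ncl at -0.40 and Heatr1 at -0.67.

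RNA polymerase I, which makes the ribosomal RNA, and its regulators had a median of -0.15, near the -0.18 of all genes. In that list 3 of 8 genes were higher, beside 32.4% of all genes. TMM factors would add 0.29 to this median and to each of the medians above. Ubtf, the factor that binds the ribosomal DNA, was at 75.2 CPM with THP and 122 CPM with vehicle, a ratio of -0.69; Polr1a, the largest subunit, was at -0.42, Polr1d at 0.22 and Myc, which drives ribosome genes, at 0.0053. These lists differ in transcript length, with a median longest transcript of 1094 bases for the ribosomal proteins, 1884 for the mitochondrial ones and 2960 for the polymerase I list. After the length trend was subtracted the medians were 0.05 for ribosomal proteins, 0.18 for mitochondrial ribosomal proteins, 0.15 for assembly, 0.13 for initiation, 0.08 for elongation and -0.02 for polymerase I.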

How the data were processed

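The deposited matrices hold whole-number UMI counts per gene and cell barcode, not normalized; per the file headers they were written by software version 3.1.0 in format version 2. Cell Ranger, bcl2fastq, STAR and mm10 are named without versions in the submitters' processing notes; read length, strand setting and annotation release were not given in the sources used here. Barcodes were kept with at least 500 genes, 1000 UMIs and at most 10% mitochondrial UMIs (12123 of 13193 THP, 10978 of 11584 vehicle). No doublet caller was run, so doublets remain.

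Counts were summed per library or gate and divided by the total (CPM). Ratios are log2 of CPM + 1, which understates low genes; genes at 10 CPM in a library were tested against a limit of 0.32 (log2), with no p-value. Intervals are exact Poisson (CPM) or exact binomial (shares) at 95% and cover counting error only. A cell met a gate with at least 3 markers detected and the list's share of its UMIs at or above a minimum chosen after seeing the data; of several gates it took the one with the largest share relative to the minimum. Within 0.32 (log2) of a minimum or of a second gate were 20.1% of THP and 18.7% of vehicle cells, and 27.0% and 37.6% met several gates.

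Lengths and 1-based coordinates are those of GENCODE M21 (GRCm38); promoters are RefSeq, GRCm38.p6. TMM and RLE factors came from edgeR 4.0.16, all else from Python 3.11.15 with numpy 2.4.6, scipy 1.17.1 and pandas 2.3.3. Named genes were the 5 highest and lowest ratios, the 5 with most UMIs, stalk genes, paralogs, the symbol-only gene, the 6 most variable parts and list extremes; others were named after seeing values, and some that the rule names are not reported here. The members and lists were chosen with earlier results of these data known. The calculation was tested on simulated data.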

Additional observations from a re-analysis of the deposited data

Results flagged for a closer look

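Barcodes that the cell filter left out were used in no comparison above. They held 2304186 UMIs in 1070 THP barcodes and 1429915 UMIs in 606 vehicle barcodes, and ribosomal protein genes took 9.43% (9.39 to 9.46) of the former and 7.59% (7.55 to 7.63) of the latter, so that the THP library was above the vehicle library there too.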

How the results depend on the processing

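The log2 ratio of the ribosomal share was 0.14. Scaling does not change a share, but the log2 ratio of the scaled ribosomal UMIs was 0.43 with TMM and 0.42 with RLE factors. The share ratio was 0.14 with all barcodes and 0.15 with at most 5% mitochondrial UMIs. Without the top 5% of cells by UMIs it was 0.14, and with equal weight per cell 0.21. With the same mix of types it was 0.14, and with cells thinned to 2000 UMIs 0.18 (670 THP and 724 vehicle cells were shallower and left out). It was 0.14 with core subunit genes only and 0.14 with ribosomal proteins outside the symbol rule added. Of the alternatives chosen after seeing the data, leaving the gate markers out of the total gave 0.13 and cells of 10000 to 30000 UMIs gave 0.15. The ratio was above 0 under all 14 alternatives run, with TMM and RLE factors counted among them. The 5 members past a log2 ratio of 0.32 became 68 with TMM and 68 with RLE factors, 14 with equal weight per cell, 3 with the same mix, 2 with core subunit genes only, 8 with the length trend subtracted, and 2 without members whose end is shared with another listed gene (also chosen after seeing the data); limits of 1.1, 1.5 and 2-fold gave 44, 1 and 0, where 18.5%, 2.33% and 0.911% of all genes were higher by as much. The share of all genes past 0.32 was 28.6% with TMM and 28.0% with RLE factors. In neither direction was it counted with equal weight per cell, with the same mix or with the length trend subtracted. The 0 members past -0.32 became 1 with the ribosomal proteins outside the symbol rule added, and 2 (Rpl35 and Rpl29) with the length trend subtracted. A 1.1-fold limit gave 2, where 54.1% of all genes were lower by as much.

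The median of the members lay 0.33 above that of all genes. This was 0.34 with TMM, RLE, the 5% mitochondrial limit and without the top 5% of cells, 0.41 with equal weight per cell, 0.32 with the same mix, 0.37 thinned, 0.31 with 5 CPM added and 0.32 with core subunit genes only. With the length trend subtracted it was 0.036, and against the 1606 shortest genes, chosen likewise, 0.046. The SD over members, 0.14, was 0.13 with the same mix, 0.11 with core subunit genes only and 0.18 with the added genes. It was 0.19 with the length trend subtracted and 0.096 without members whose end is shared with another listed gene. The median SD of a member's part over types, 0.14, was 0.16 with doubled gate minimums. Types with a higher share in the THP library were 7 of 7 in 12 of the 14 alternatives and 6 of 7 in the 2 on cells that meet several gates. No paired analysis was possible because each group has 1 library. With 1 library a group, counting depth is not the limit here: the spread between cultures is unknown.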

Other observations

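Cells with a very high ribosomal share were more frequent in the THP library. At least 30% of UMIs came from ribosomal protein genes in 273 of 12123 THP cells (2.25%, 2.00 to 2.53) and in 80 of 10978 vehicle cells (0.73%, 0.58 to 0.91). Antigen-presenting cells made up 84 of the THP cells and 11 of the vehicle cells, out of 805 and 845. T, NK and innate lymphoid cells made up 38 and 15, out of 53 and 42, and B-lineage cells 44 and 28, out of 94 and 64. Cells that met no gate made up 78 and 21. These cells had a median of 4563 UMIs with THP and 3728 with vehicle, below the library medians, and whether they are a state of the cells was not tested.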
